A study of Homo sapiens with 18 samples.

Results

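MAPKAPK2, UBE2Q2, ADPGK, CYRIB and CA13 are 5 genes whose messenger RNA was lower with doxycycline in each of 3 human cancer cell lines that carry an inducible short hairpin RNA against MUC1. They were selected on measured values, as rows of the 3 deposited tables that were lower in the doxycycline columns of every line, and they are 5 of 26792 gene symbols listed in any table and of 18810 listed in every table. CYRIB stands in the tables under its older symbol FAM49B. Because the comparison of doxycycline with vehicle chose these genes, their changes are given as a description with standard errors and without a test.

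RKO and COLO 201 derive from colon cancer and H1975 from lung cancer. All 18 samples carry the same construct, tet-MUC1shRNA, and a puromycin resistance label, and each line has 3 columns with 500 ng/ml doxycycline and 3 read as vehicle (0.1% DMSO), grown with 10% serum. The arm was read from the column headings, since every sample record bears the same agent label. The RKO vehicle columns bear the heading DOX without a minus, and they were taken as vehicle because the protocol names no other arm. No line with a control hairpin and doxycycline was analysed here, so the action of the hairpin and that of the drug cannot be told apart. The labels speak of triplicate cultures and say no more of how separate they were, so p-values measure the spread between these samples, which may be technical.

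MUC1 is a transmembrane mucin of epithelial cells that is overproduced in many carcinomas. A short hairpin RNA is cut by enzymes such as DICER1 into a small guide RNA. Argonaute proteins carry this guide to a matching messenger RNA, which is then degraded. Guide RNAs can also lower other messenger RNAs whose 3′ untranslated region (3′ UTR) pairs with the guide's seed, the bases 2 to 8 from its 5′ end, in the way that microRNAs do. The 5 genes have unrelated roles. MAPKAPK2, also called MK2, is a protein kinase activated by p38 that controls the stability of inflammatory messenger RNAs. UBE2Q2 is an E2 enzyme that carries ubiquitin to substrates. ADPGK phosphorylates glucose with ADP as the donor, the first step of glycolysis. CYRIB binds active RAC1 and restrains the WAVE complex and actin branching. CA13 is a cytosolic carbonic anhydrase, which interconverts carbon dioxide and bicarbonate.

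The tables give TPM, which keep no read totals, so depth is unknown, and each table was scaled on its own gene list, so levels are not compared between lines. In the RKO columns 68.0% to 79.0% of all TPM fell to small noncoding RNA genes, and at most 0.0104% did so in the other lines. RKO vehicle column 1 stood apart: 12 fibroblast and endothelial markers summed to 240 TPM there, with COL1A2 at 84.8 TPM and 2 of the 12 at 0, against at most 0.0231 TPM in the other 5 RKO columns. The 8 colon markers, led by EPCAM in each line, summed to 955 to 1145 TPM in COLO 201 and 372 to 572 TPM in H1975. In RKO they summed to 3.36 to 9.33 TPM, and 4 to 6 of the 8 were at 0. EPCAM alone stood at 814 to 946 TPM in COLO 201 and 372 to 571 TPM in H1975. Because of the table scaling, these sums are not compared between lines. The lung marker NKX2-1 stood at 22.4 to 25.6 TPM with vehicle and 15.09 to 16.9 TPM with doxycycline in H1975, and all 3 lung markers tested there were called lower. Other marker sums moved with doxycycline too. In H1975 the fibroblast and endothelial sum was 45.7 to 47.9 TPM with vehicle and 17.9 to 21.6 TPM with doxycycline, led by COL1A1. The 12 leukocyte and erythroid markers, led by LYZ in COLO 201 and by CD68 in the other lines, summed to 1288 to 1295 TPM with vehicle and 693 to 743 TPM with doxycycline in COLO 201. They were higher with doxycycline in RKO (121 to 262 against 392 to 489 TPM) and H1975 (161 to 170 against 279 to 331 TPM). The part of these markers in the falls below was not tested. In bulk samples, fewer cells of a type and less RNA per cell cannot be told apart.

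MUC1, the targeted gene, was lower in every doxycycline column. In RKO it stood at 15.2, 1.24 and 1.03 TPM in vehicle columns 1 to 3 and at 0.108, 0.105 and 0.204 TPM with doxycycline. In COLO 201 the vehicle columns held 13.2, 15.0 and 13.6 TPM and the doxycycline columns 2.03, 1.78 and 1.53 TPM. In H1975 they held 101, 86.2 and 105 TPM against 7.05, 9.56 and 7.44 TPM. The arms did not overlap in any line, and vehicle column 1 of RKO was 13.4-fold above the mean of the other 2 vehicle columns. Of the mean vehicle level, 2.38% was left in RKO, 12.8% in COLO 201 and 8.22% in H1975, and 12.2% in RKO without vehicle column 1.

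A gene is called lower or higher here where limma's two-sided adjusted p on log2(TPM + 1) was under 0.05 in a line. Of 9338 genes tested in every line, 155 (1.66%) were called lower in all of them and 54 higher, and the first number was 68 without RKO doxycycline column 1. Ranked by their smallest fall over the 3 lines, MUC1 came first, WARS1 second, and MAPKAPK2 and UBE2Q2 held places 3 and 4, followed by PSMB5, ADPGK, CYRIB and CA13 in place 8. The smallest falls just inside the last place were -0.92 for ADPGK, -0.91 for CYRIB and -0.89 for CA13 (log2). Just outside stood GLCE at -0.84, PGAM1 at -0.81 and AIMP2 at -0.78. The place of MUC1 rests on RKO vehicle column 1, without which its mean fell under 1 TPM and it was not tested in RKO.

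The 3′ UTRs of the 5 genes share a 7-base word that the choice of genes did not use. Every 7-base word was counted, on the transcript strand only, in the longest annotated 3′ UTR of 146 other genes called lower in every line, with MUC1 and the 5 genes left out. The word ATCAGTA ranked first of all words with at least 5 expected occurrences. It occurred 117 times against 27.3 expected from its density in all genes, 4.29 times as often, and 82 of the 146 genes (56.2%) held it, against 11.5% of the 9288 genes tested in every line that have a 3′ UTR. TCAGTAA, which overlaps it by 6 bases, ranked second with 112 occurrences against 35.3. Each of the 5 genes held exactly 1 copy, followed by A in all 5. A match describes letters in the annotation and is neither a shown binding site nor a cause.

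The sites of 3 of the genes, and the one copy in MUC1, are printed because they show how far the shared letters reach. Each run has 30 bases, 5′ to 3′ on the transcript strand, from GENCODE release 29 on GRCh38, with the word in capitals.
MAPKAPK2: ttttgcaattttATCAGTAatttgacttag
UBE2Q2: agaattctttaaATCAGTAaagttccttaa
ADPGK: agctccaggatcATCAGTAaatttgtcatg
MUC1: agacacagttcaATCAGTAtaaaacggaag

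The windows lie at chr1:206732956-206732985 on the plus strand in the 3′ UTR of MAPKAPK2, chr15:75900831-75900860 (plus) in that of UBE2Q2, chr15:72751443-72751472 (minus) in that of ADPGK and chr1:155187761-155187790 (minus) in MUC1. Around the word the sites did not go on matching: the run shared with the MUC1 site was 7 bases for MAPKAPK2, ADPGK and CA13 and 8 bases, 1 more before the word, for UBE2Q2 and CYRIB. In MUC1 the word was followed by T and lay in 14 of 23 complete coding transcripts, in the coding sequence of 13 and the 3′ UTR of 1. In MAPKAPK2 it lay in 1 of 2 complete coding transcripts and not in the principal one, while the other 4 genes held it in their principal transcript. None of 2370 mature human microRNAs in RefSeq's table had the seed UACUGAU, which would pair with all 7 bases. The sequence of the hairpin was not used here, so whether its guide carries this seed was not tested.

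MAPKAPK2, the p38-activated kinase, had all its doxycycline columns below all its vehicle columns in each line. In RKO its vehicle columns held 25.2, 25.01 and 20.3 TPM and its doxycycline columns 8.83, 10.99 and 10.2 TPM. In COLO 201 they held 45.5, 48.1 and 45.6 TPM against 23.2, 21.2 and 21.2 TPM. In H1975 they held 73.7, 79.9 and 79.5 TPM against 32.1, 33.2 and 30.9 TPM. The arms were wide apart, and the RKO columns were the most spread. Its log2 change was -1.15 (SE 0.20) in RKO, -1.05 (SE 0.05) in COLO 201 and -1.25 (SE 0.07) in H1975, so that 42.6%, 47.2% and 41.3% of the vehicle mean was left.

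UBE2Q2, the ubiquitin-conjugating enzyme, had the least left of the 5 genes in RKO and COLO 201. Its RKO vehicle columns held 8.18, 11.1 and 9.47 TPM and its doxycycline columns 2.69, 4.05 and 2.95 TPM. In COLO 201 it stood at 17.6, 18.3 and 17.6 TPM against 6.62, 7.02 and 6.55 TPM. In H1975 it stood at 28.5, 34.0 and 30.2 TPM against 14.3, 12.5 and 17.2 TPM. Doxycycline column 3 of H1975 was the highest of its arm and still below every vehicle column. The log2 changes were -1.33 (SE 0.19), -1.28 (SE 0.05) and -1.03 (SE 0.10) in RKO, COLO 201 and H1975, with 33.7%, 37.8% and 47.4% left.

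ADPGK, the ADP-dependent glucokinase, varied little within an arm in COLO 201 and H1975. Its RKO columns held 8.37, 10.3 and 9.05 TPM with vehicle and 3.10, 4.21 and 3.94 TPM with doxycycline. The COLO 201 columns held 27.4, 28.5 and 27.4 TPM against 14.2, 13.5 and 12.5 TPM. The H1975 columns held 59.6, 62.4 and 61.7 TPM against 32.0, 31.0 and 32.7 TPM. No doxycycline column reached a vehicle column. Its log2 changes were -1.11 (SE 0.18), -1.002 (SE 0.05) and -0.92 (SE 0.07), with 40.7%, 48.2% and 52.1% left in RKO, COLO 201 and H1975.

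CYRIB, the RAC1-binding inhibitor of actin branching, had the largest fall of the 5 in RKO and the smallest in H1975 on the log2 scale. In RKO it stood at 13.2, 16.2 and 13.6 TPM with vehicle and 4.07, 6.13 and 4.53 TPM with doxycycline. In COLO 201 it stood at 37.4, 39.8 and 36.6 TPM against 16.1, 16.9 and 15.6 TPM. In H1975 it stood at 23.9, 28.2 and 25.7 TPM against 12.8, 12.4 and 14.7 TPM. The arms were apart in each line. The log2 changes were -1.39 (SE 0.19), -1.18 (SE 0.05) and -0.91 (SE 0.08), with 34.2%, 42.7% and 51.3% left.

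CA13, the carbonic anhydrase, had the closest arms of the 5, in RKO. There its vehicle columns held 8.42, 12.7 and 10.6 TPM and its doxycycline columns 4.06, 6.28 and 5.21 TPM. In COLO 201 they held 3.78, 4.27 and 3.93 TPM against 1.51, 1.74 and 1.82 TPM. In H1975 they held 12.6, 12.8 and 13.1 TPM against 6.04, 5.11 and 6.503 TPM. The lowest RKO vehicle column was 8.42 TPM and the highest doxycycline column 6.28 TPM, so the arms did not overlap there either. Its log2 changes were -0.91 (SE 0.20), -0.89 (SE 0.08) and -1.01 (SE 0.09), with 48.9%, 42.4% and 45.9% left.

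**Figure D1:**
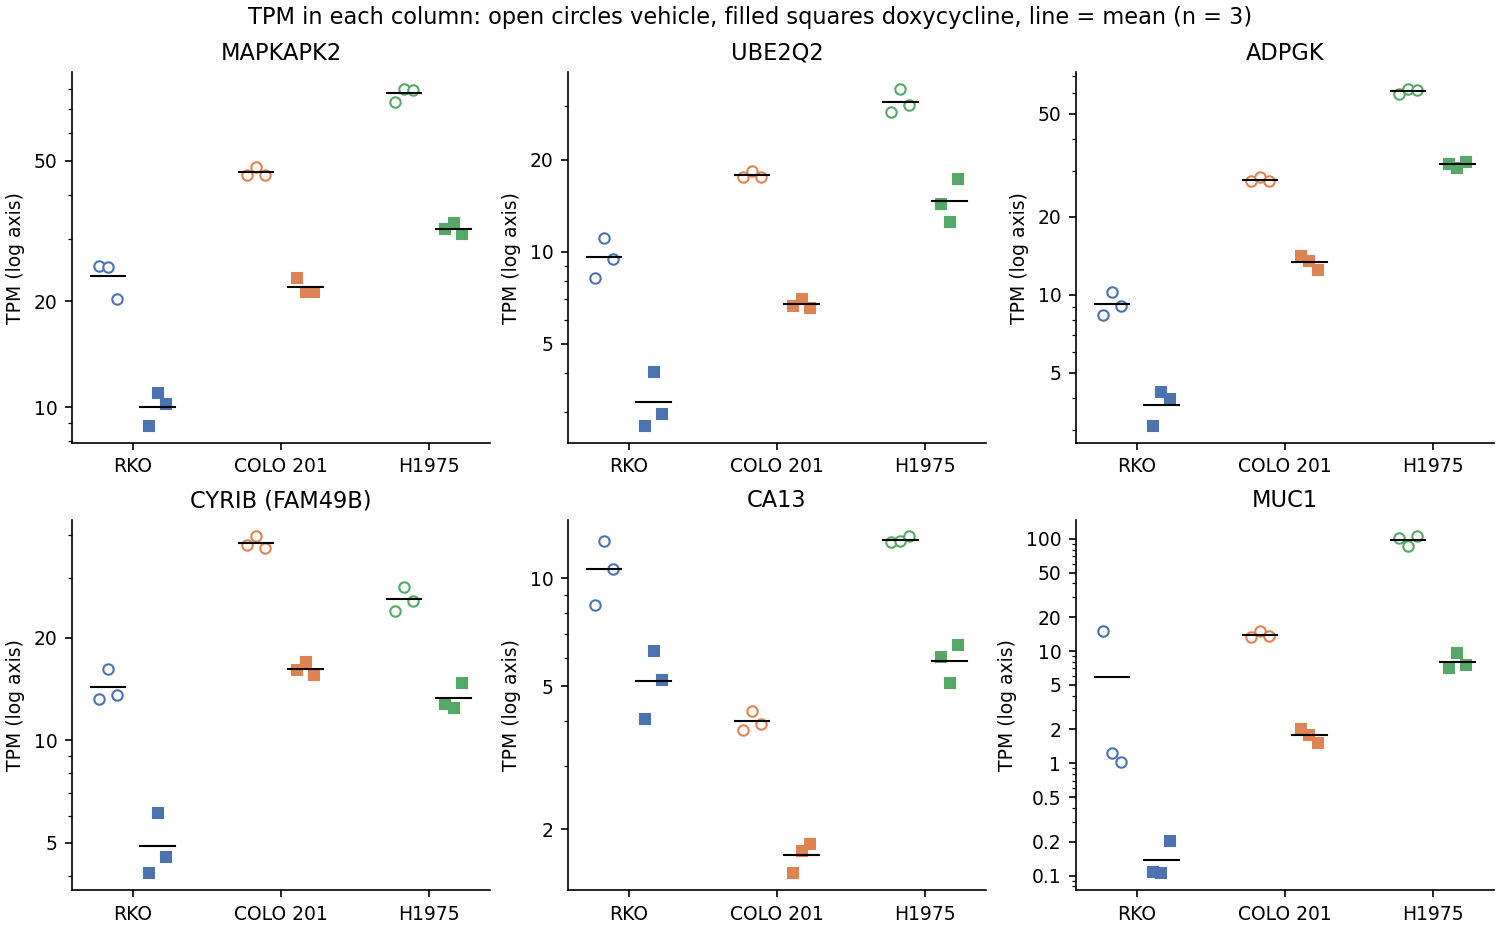
TPM (log axis) of the 5 genes and MUC1 in every column, by cell line; open circles are vehicle, filled squares doxycycline, and the black line is the mean of 3 columns. No arms overlap within a line, and MUC1 in RKO vehicle column 1, at 15.2 TPM, is far above the other 2 vehicle columns.

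All 15 pairs of arms, 5 genes in 3 lines, did not overlap. Over all tested genes, every doxycycline column lay below every vehicle column in 32.4% for RKO, 16.6% for COLO 201 and 18.4% for H1975, and 16.1%, 15.0% and 14.6% were called lower. Since the 5 genes were chosen on this contrast, nothing is read from the difference. The median log2 change of the 5 was -1.15 in RKO, -1.05 in COLO 201 and -1.01 in H1975, beside medians over all tested genes of -0.26, 0.12 and 0.06. Larger falls than that of CA13 occurred in 660 of 10551 tested genes in RKO, and larger falls than that of MAPKAPK2 in 41 of 12359 in H1975. MAPKAPK2 had the highest mean vehicle level of the 5 in each line (23.5, 46.4 and 77.7 TPM in RKO, COLO 201 and H1975). Next in H1975 came ADPGK at 61.2 TPM and UBE2Q2 at 30.9 TPM, then CYRIB and CA13, and none of these neighbours overlapped. In RKO the vehicle ranges of CA13, UBE2Q2 and ADPGK overlapped, so their order is within the spread.

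In the doxycycline arm of RKO the 5 genes shared the order of the columns, with column 1 the lowest and column 2 the highest. In the vehicle arm 4 of them ran from column 2 down to column 1, while MAPKAPK2 was lowest in column 3. In doxycycline column 1 small noncoding RNA took 79.0% of TPM, the most of any RKO column. After RKO vehicle column 1 was left out and the columns were rescaled by their median ratio, the standard errors in RKO were 0.05 to 0.06 and the log2 changes were -0.80 for MAPKAPK2, -1.15 for UBE2Q2, -0.90 for ADPGK, -1.16 for CYRIB and -0.77 for CA13. The part of small noncoding RNA in this spread was not tested.

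With all columns, none of the 5 genes had the order of lines of MUC1 in the size of the fall, on either of 2 scales. On the log2(TPM + 1) scale, where the pseudocount compresses the low MUC1 levels of RKO, MUC1 changed by -1.88 (SE 0.43) in RKO, -2.43 (SE 0.08) in COLO 201 and -3.46 (SE 0.10) in H1975, so H1975 had the largest fall and RKO the smallest. UBE2Q2, ADPGK and CYRIB ran the other way, with the largest fall in RKO and the smallest in H1975. MAPKAPK2 and CA13 fell most in H1975, then RKO, then COLO 201. As percent left, MUC1 was least in RKO, then H1975, then COLO 201. On that scale UBE2Q2, ADPGK and CYRIB also had the least left in RKO, followed by COLO 201 and H1975, and CA13 had the least in COLO 201, then H1975, then RKO. Without RKO vehicle column 1, 8.22% of MUC1 was left in H1975, 12.2% in RKO and 12.8% in COLO 201, the same order of lines as for MAPKAPK2. With 3 lines no correlation was tested, and the RKO standard errors of the 5 genes, 0.18 to 0.20, exceed some of the differences between lines, such as those of CA13.

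Vehicle columns gave a comparison within a line. RKO vehicle column 1 held 13.4-fold the MUC1 of the other 2 vehicle columns, while MAPKAPK2 was 1.11-fold, CYRIB 0.886-fold, ADPGK 0.866-fold, UBE2Q2 0.796-fold and CA13 0.720-fold of theirs. For 4 of the 5, that column was the lowest vehicle column, whereas for MUC1 it was the highest. The fibroblast and endothelial markers that stand out there move with that column, and their part in this was not tested. In COLO 201 vehicle column 2 held the most MUC1, 15.0 TPM, and was also the highest vehicle column of each of the 5 genes. In H1975 MUC1 was highest in vehicle column 3, at 105 TPM, where CA13 was highest too. MAPKAPK2, UBE2Q2, ADPGK and CYRIB were highest in H1975 vehicle column 2, where MUC1 was lowest at 86.2 TPM. The lines thus differed in this, and no link was tested.

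**Figure D2:**
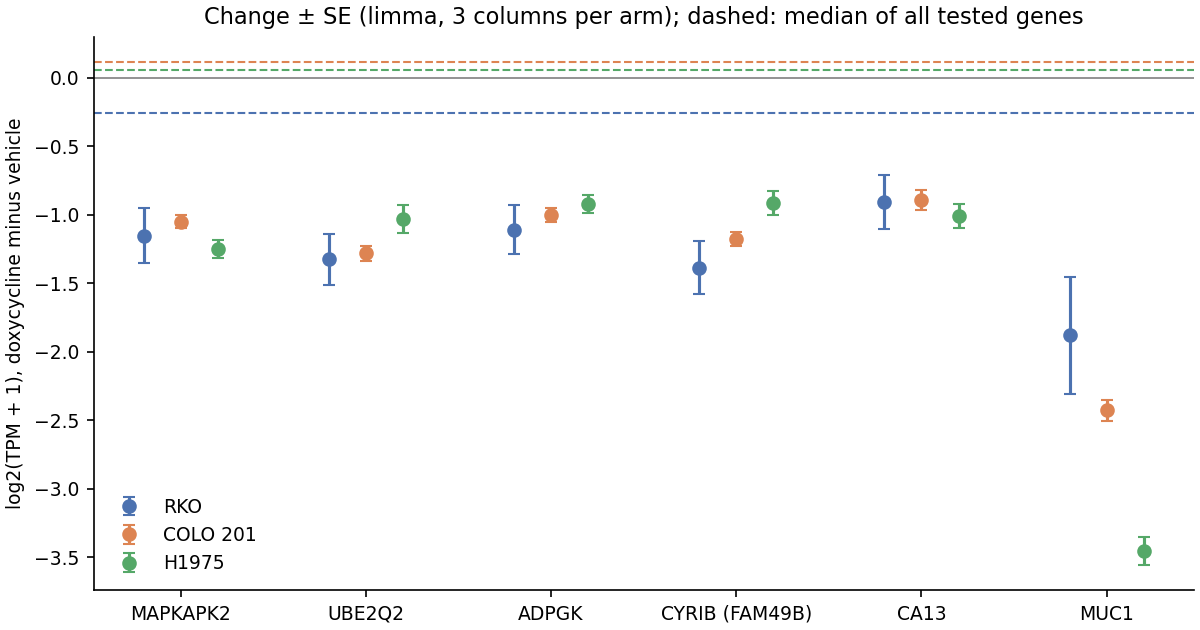
Change in log2(TPM + 1), doxycycline minus vehicle, with its standard error (limma, 3 columns per arm) for the 5 genes and MUC1 in each line; dashed lines are the medians of all tested genes. The 5 genes lie between -1.39 and -0.89 in every line, while MUC1 ranges from -1.88 to -3.46.

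Over all tested genes, those with the word had a lower median change than those without it in each line, by less than the falls of the 5. These counts include the genes called lower in every line, among which the word was chosen. In COLO 201 the median log2 change was 0.13 over 10074 genes with no copy, -0.01 over 1027 genes with 1 copy, -0.12 over 174 with 2 and -0.21 over 34 with 3 or more. In RKO the medians were -0.25, -0.36, -0.43 and -0.47, and in H1975 they were 0.07, 0.02, -0.01 and -0.13. The median thus moved down with each added copy in all 3 lines. Called lower were 12.9% of the genes without the word and 32.6% of those with it in COLO 201, 14.6% and 29.1% in RKO, and 13.9% and 19.3% in H1975. Leaving out the genes called lower in every line, an alternative added after seeing the data, changed the shares to 12.4% and 27.5% in COLO 201 and 13.95% and 23.2% in RKO. In H1975 they then were 13.3% of 10660 genes without the word and 13.6% of 1245 with it. The genes left out were all called lower in each line, and 88 of the 152 with a 3′ UTR held the word. Leaving them out thus had to narrow the contrast, and the source of the contrast cannot be told from this. The medians without those genes, from 0 to 3 or more copies, were 0.13, 0.01, -0.05 and -0.08 in COLO 201, -0.24, -0.34, -0.36 and -0.37 in RKO, and 0.07, 0.04, 0.03 and -0.11 in H1975.

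**Figure D3:**
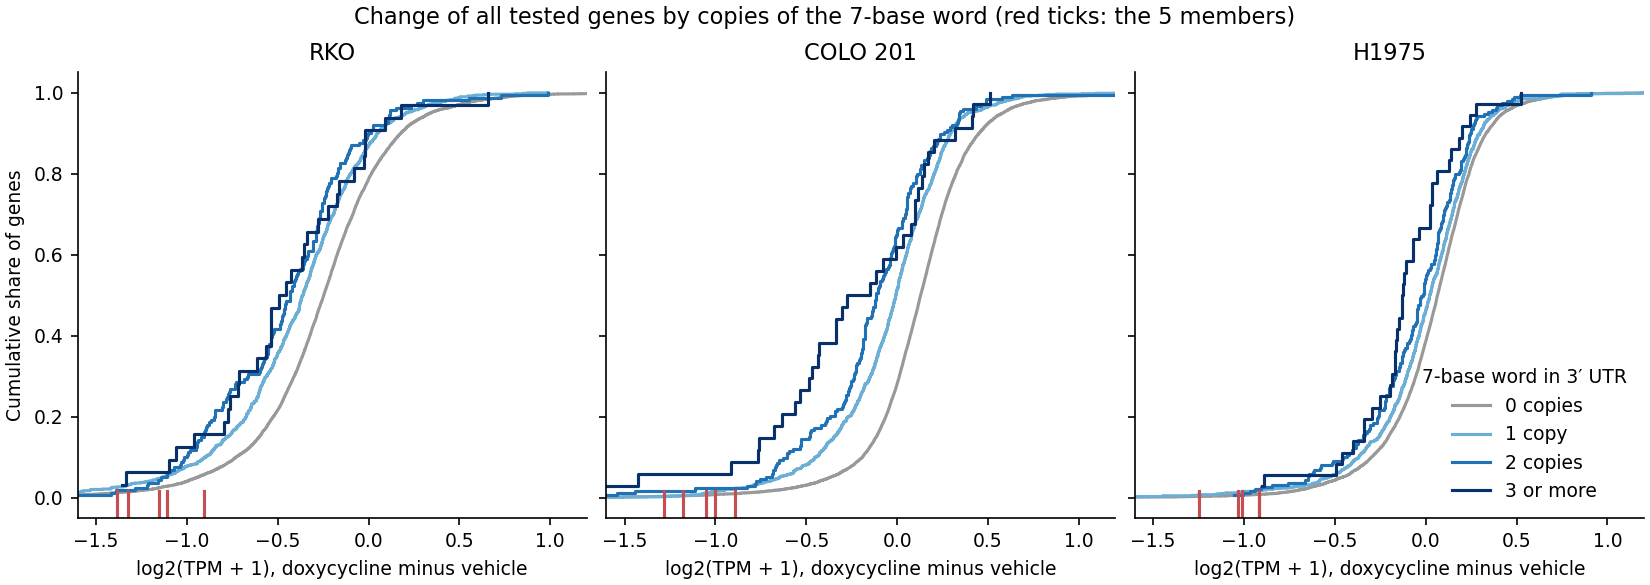
Cumulative share of all tested genes by log2 change, for genes with 0, 1, 2 and 3 or more copies of the 7-base word in the longest 3′ UTR, per line; red ticks mark the 5 genes, and the genes that chose the word are included. The medians move down with more copies, from 0.13 to -0.21 in COLO 201 and from 0.07 to -0.13 in H1975.

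Copies rise with length, and genes with the word had a median 3′ UTR of 3257 bases against 1200 in COLO 201. Within bands of 3′ UTR length, chosen after seeing the data, the median of genes with the word lay below that of genes without it in each of 4 bands and each line, with differences of -0.21 to -0.12 in RKO, -0.17 to -0.09 for COLO 201 and -0.17 to -0.05 for H1975. Without the genes called lower in every line they were -0.13 to -0.10, -0.15 to -0.08 and -0.10 to -0.02. The base after the word, also examined after seeing the data, divided the genes further. Where A followed, as in the 5 genes, 43.7% of 405 genes were called lower in COLO 201, against 27.2% of 830 with another base there. The same shares were 37.4% and 25.1% in RKO and 26.4% and 15.8% in H1975. Without the genes that chose the word they were 34.7% and 24.3% in COLO 201, 26.3% and 21.8% in RKO, and 15.6% and 12.7% in H1975. With those genes included, the word ranked first among all words in genes called lower in COLO 201, second in RKO and in place 242 in H1975. Among genes called higher it was rarer than expected in each line, at 0.63 times the expected number in COLO 201, 0.70 in RKO and 0.73 in H1975. The occurrences were 370 against 583 expected in COLO 201 and 277 against 379 in H1975. The RKO ratio rests on only 13 against 18.6.

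Within the list of 155, the places of the genes that hold the word are given as a description, since the word was chosen for its excess in that list and the first 10 places include MUC1 and the 5 genes. All 10 genes in the first 10 places held it, MUC1 in 1 transcript's 3′ UTR, and 17 of the first 20 did. Over all 155 genes it was 88 of 152 with a 3′ UTR. IFNGR1 and MBTPS1 were called lower in every line with no copy in the longest or the principal 3′ UTR, and NPLOC4 had none in the longest and 1 in the principal.

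**Figure D4:**
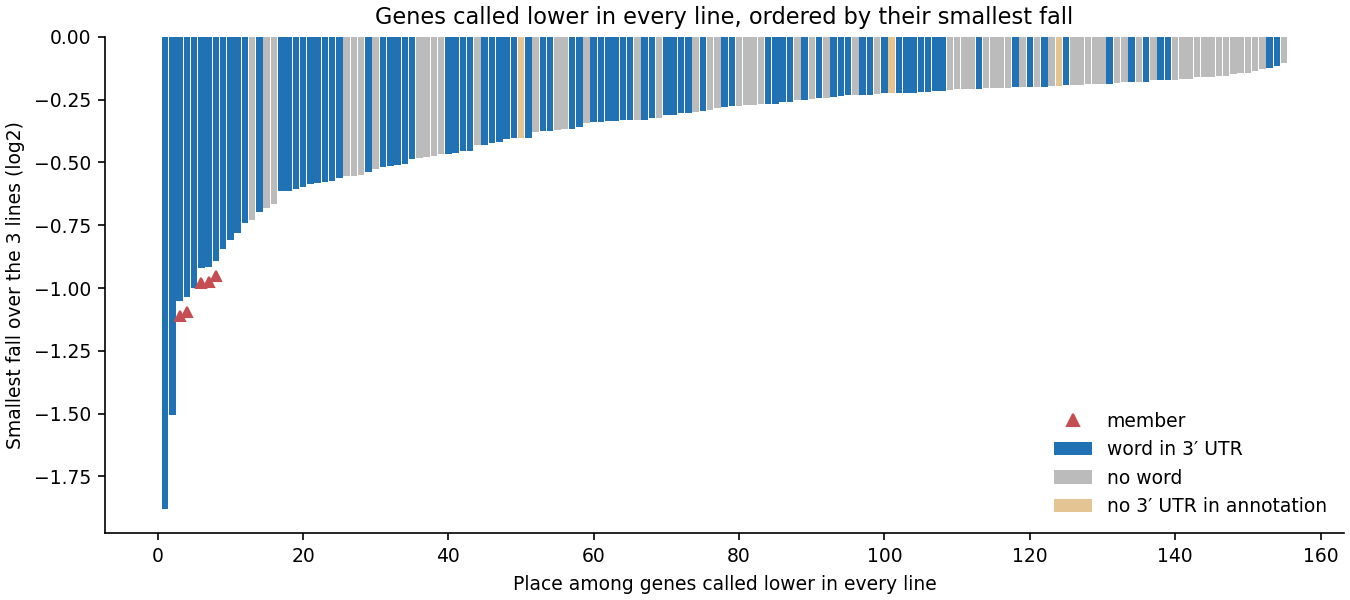
The 155 genes called lower in every line, ordered by their smallest log2 fall over the 3 lines; bar colour shows whether the longest 3′ UTR holds the 7-base word and triangles mark the 5 genes. The word was chosen in this list with MUC1 and the 5 genes left out, and the first 10 bars all hold it.

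Relatives of the 5 genes served as a comparison that the choice did not use. They share protein function or ancestry. None of those tested held the word, beside 11.5% of the genes tested in every line that have a 3′ UTR. With so few relatives nothing is read from this. Of 16 such genes, 7 were tested in RKO, 9 in COLO 201 and 7 in H1975, and the 2 called lower were both in COLO 201. Over all genes, 2.09% were called higher in RKO, 45.9% in COLO 201 and 23.9% in H1975, and 16.1%, 15.0% and 14.6% were called lower. MAPKAPK3, the closest relative of MAPKAPK2, rose by 0.31 in H1975 (SE 0.07, limma adjusted p = 0.0022), and in RKO and COLO 201 its changes of 0.19 and 0.13 did not pass the test. MAPKAPK5 rose by 0.23 (SE 0.07) in H1975. UBE2Q1, the paralog of UBE2Q2, passed the test in no line, with changes of -0.23, 0.06 and 0.12 in RKO, COLO 201 and H1975.

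The hexokinases use ATP for the step that ADPGK takes with ADP. Of 8 tests of HK1, HK2 and HKDC1 over the lines, 4 were called higher, 1 was called lower and 3 did not pass. HK2 rose from a mean of 26.4 to 43.6 TPM in COLO 201, by 0.71 (SE 0.05, limma adjusted p = 9.2e-08), and by 0.54 (SE 0.07) in H1975. HK1 rose by 0.66 (SE 0.04) in COLO 201 and 0.30 (SE 0.06) in H1975. Neither passed the test in RKO as deposited (0.51 for HK2, -0.07 for HK1), and both were called higher there after rescaling, at 0.80 and 0.22. HKDC1 fell by 0.41 (SE 0.04) in COLO 201. CYRIA, the paralog of CYRIB, was tested in COLO 201 alone, where it rose by 0.47 (SE 0.09) from a mean of 0.754 to 1.43 TPM. Among carbonic anhydrases, CA8 fell by 0.70 (SE 0.06) in COLO 201 and CA5B rose by 0.24 (SE 0.08) in H1975, while CA2 in RKO changed by -0.53 (SE 0.22, limma adjusted p = 0.085).

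**Figure D5:**
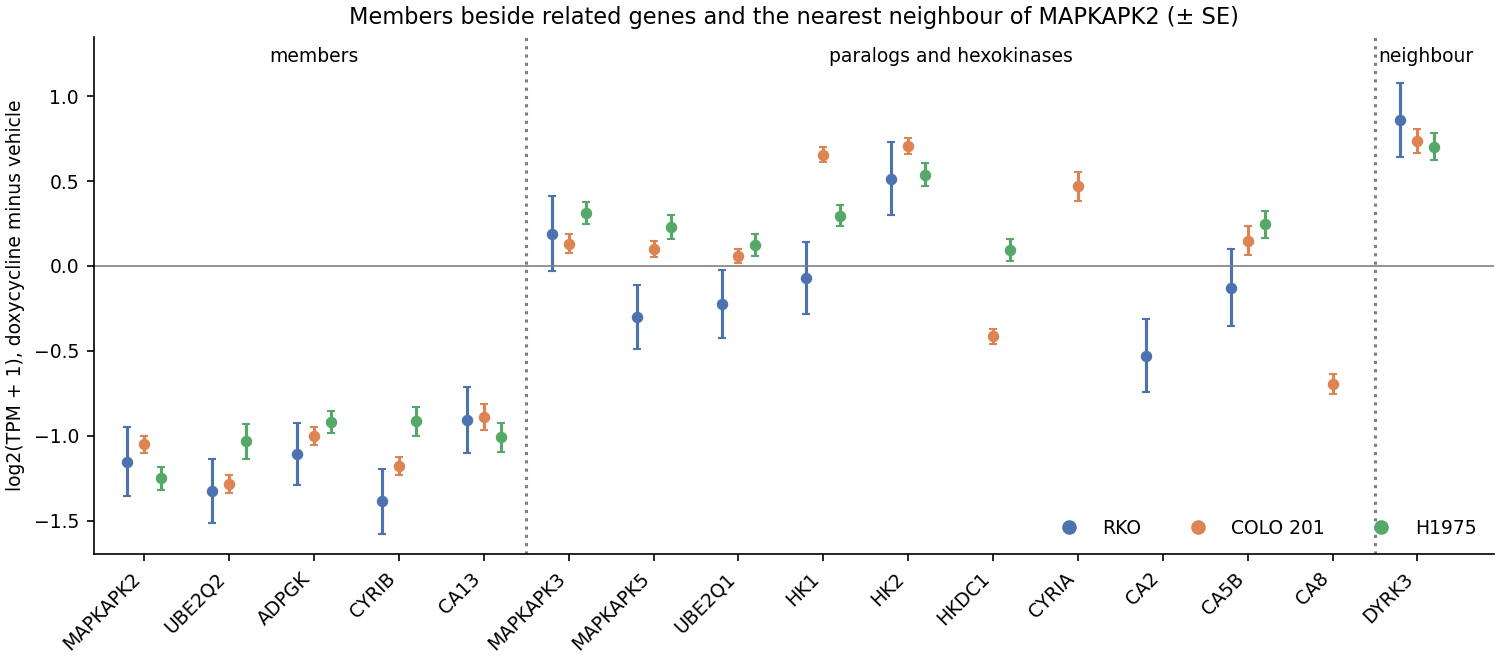
Change in log2(TPM + 1), doxycycline minus vehicle, with its standard error, for the 5 genes, their relatives with a mean of at least 1 TPM in a line, and DYRK3, the gene next to MAPKAPK2. The 5 genes lie below -0.85 in every line, and of the relatives HKDC1 and CA8 in COLO 201 were called lower.

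Of the p38 and MK2 pathway, 1 of 24 tested genes rose and 2 fell in RKO, 13 rose and 5 fell of 27 in COLO 201, and 12 rose and 4 fell of 29 in H1975. The list medians were -0.26, 0.13 and 0.12, near those of all genes. Of all tested genes, 2.09% were called higher and 16.1% lower in RKO, 45.9% and 15.0% in COLO 201, and 23.9% and 14.6% in H1975. These shares stand beside the counts of each list that follows as well. MAPK13, a p38 kinase, rose in every line, by 0.99, 0.22 and 0.64 in RKO, COLO 201 and H1975, and holds the word once in its longest 3′ UTR but not in that of its principal transcript, and in COLO 201 it no longer passed after rescaling (0.09). MAP3K7, the kinase TAK1, holds the word and fell by 0.85 in RKO and 0.32 in COLO 201, and changed by -0.18 in H1975. Of the 4 tested genes of this list with the word in RKO, 1 rose and 1 fell. In COLO 201 3 of 6 rose and 2 fell, and in H1975 4 of 6 rose and 1 fell. HSPB1, a chaperone phosphorylated through MK2, fell by 0.68 in RKO and 0.41 in H1975 and rose by 0.25 in COLO 201, which did not pass after rescaling.

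Of the E2 enzymes, none rose and 3 fell of 32 tested in RKO, 11 rose and 4 fell of 31 in COLO 201, and 10 rose and 4 fell of 32 in H1975. UBE2Z, which charges from UBA6 and holds the word, fell in each line, by 0.60, 0.12 and 0.49. It is among the genes called lower in every line that chose the word. Of the 4 E2 enzymes with the word, UBE2Z alone was called in RKO and COLO 201. In H1975 2 of the others rose. UBE2C, the cell-cycle E2, fell by 0.72 in RKO and 0.41 in H1975 without holding the word. UBE2L6, an ISG15-conjugating enzyme, rose by 0.69 in COLO 201 and fell by 0.27 in H1975.

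Of the glycolysis genes, 2 of 23 rose and 7 fell in RKO, 14 of 22 rose and 5 fell in COLO 201, and 7 of 24 rose and 7 fell in H1975. The 2 that hold the word, PGAM1 and LDHA, fell in each line. Both are among the genes called lower in every line that chose the word, so nothing is read from their falls beside the others. PGAM1, which shifts the phosphate of 3-phosphoglycerate, changed by -1.83 (SE 0.21), -0.81 (SE 0.05) and -1.11 (SE 0.06) in RKO, COLO 201 and H1975. LDHA, which makes lactate, changed by -1.57 (SE 0.23), -0.70 (SE 0.04) and -0.84 (SE 0.06). The other glycolysis genes without the word had medians of -0.20, 0.28 and -0.03.

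Of the RAC1, WAVE and ARP2/3 genes, none of 26 rose and 4 fell in RKO, 9 of 28 rose and 5 fell in COLO 201, and 7 of 26 rose and 2 fell in H1975. RAC1 itself, which CYRIB binds and which holds the word, fell by 1.31 (SE 0.25) in RKO and 0.38 (SE 0.04) in COLO 201, and changed by -0.16 in H1975 (limma adjusted p = 0.080). Of the genes of this list with the word, none of 5 rose and 1 fell in RKO. In COLO 201 2 of 6 rose and 3 fell, and in H1975 1 of 6 rose and 1 fell. PAK1, a kinase activated by RAC1, rose by 0.35 in COLO 201 and 0.46 in H1975. ELMO2, which helps to load RAC1, fell in each line by 0.59, 0.20 and 0.39 without holding the word.

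Of the carbonic anhydrase and bicarbonate transport genes, none of 6 was called in RKO, 2 of 7 rose and 1 fell in COLO 201, and 2 of 7 rose and 2 fell in H1975. CA9 and CA12, the surface enzymes, fell by 0.82 and 0.62 in H1975. SLC4A7, a bicarbonate transporter that holds the word, rose there by 0.73.

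Of 16 genes of small RNA processing, none rose and 4 fell in RKO, 7 rose and 7 fell in COLO 201, and 4 rose and 5 fell in H1975. DROSHA changed by -1.07, -0.19 and -0.24 in RKO, COLO 201 and H1975, lower in each, and holds no copy. PRKRA, a partner of DICER1 that holds the word, fell by 0.98, 0.37 and 0.19. TNRC6A, which links argonautes to the decay machinery and also holds it, fell by 0.87, 0.30 and 0.60, and in RKO it did not pass after rescaling. PRKRA and TNRC6A are both among the genes called lower in every line that chose the word. Of the 5 genes of this list with the word, 2 fell and none rose in RKO. In COLO 201 4 fell and 1 rose, and in H1975 3 fell and none rose. DICER1 rose by 0.40 in COLO 201 and 0.35 in H1975 and changed by 0.15 in RKO.

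The genes beside the 5 on the chromosome were called lower in 2 or 3 of 30 cases per line, against 16.1%, 15.0% and 14.6% of all tested genes in RKO, COLO 201 and H1975. MAPKAPK2 lies on chromosome 1 (206684944 to 206734283, plus strand), UBE2Q2 on 15 (75843285 to 75901078, plus), ADPGK on 15 (72751369 to 72785846, minus), and CYRIB (129839593 to 130017129, minus) and CA13 (85220587 to 85284073, plus) share chromosome 8. Of the 30 nearest tested protein-coding genes per line, 3 on each side, 3 rose and 3 fell in RKO, 13 rose and 2 fell in COLO 201, and 14 rose and 2 fell in H1975. After rescaling 5, 6 and 5 of the 30 were called lower, beside 14.1%, 30.0% and 18.5% of all tested genes with a 3′ UTR. DYRK3, a kinase gene that ends 0.525 kb before MAPKAPK2, rose in each line, from a mean of 18.3 to 34.0 TPM in RKO, 3.27 to 6.13 TPM in COLO 201 and 19.996 to 33.2 TPM in H1975. Its log2 changes were 0.86 (SE 0.22), 0.74 (SE 0.07) and 0.70 (SE 0.08), with limma adjusted p = 0.0061, 2.8e-06 and 2.0e-05.

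MYC, 2098 kb from CYRIB, also rose in each line, by 0.67, 0.50 and 0.61. ASAP1, 34.98 kb from CYRIB, holds the word and fell by 0.81 in RKO and 0.40 in COLO 201. TRIB1, 4401 kb from CYRIB, also holds the word and rose by 0.55 in COLO 201. Of the other neighbours with the word, FBXO22, ARIH1, WWP1, SNX16, CPNE3 and KCNQ3, none was called before rescaling. After rescaling WWP1 was called lower in each line and FBXO22 in COLO 201. BBS4, 12.9 kb from ADPGK, rose by 0.61 in COLO 201 and 0.29 in H1975. E2F5, 3.43 kb from CA13, rose by 0.36 in H1975. IL10, 33.3 kb from MAPKAPK2, fell in COLO 201 from 42.1 to 20.1 TPM without holding the word. SNUPN near UBE2Q2 and LRRCC1 near CA13 fell in RKO, by 0.67 and 0.90. ATP6V0D2 near CA13 rose by 1.76 in H1975.

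Over the 18 columns, centred on the mean of each line, the 5 genes moved closely together, which mostly restates the difference between arms that chose them. Pearson's r between pairs ran from 0.956, for MAPKAPK2 with CA13, to 0.995, for UBE2Q2 with CYRIB. Their r with MUC1 was lower, at 0.913 for MAPKAPK2, 0.836 for ADPGK, 0.804 for CYRIB, 0.802 for UBE2Q2 and 0.794 for CA13. Without RKO vehicle column 1 these were 0.927, 0.865, 0.813, 0.835 and 0.876, and r between pairs of the 5 ran from 0.961 to 0.997. Between 45 and 373 genes were more like each of them than MUC1 was. The gene outside the group most like MAPKAPK2, UBE2Q2, ADPGK and CA13 was WARS1, a tRNA synthetase, with r of 0.986, 0.977, 0.990 and 0.984. For CYRIB it was PSMB5, a proteasome subunit, with r of 0.985, followed by G3BP2 at 0.985 and EBAG9 at 0.980. The other likest genes were IFNGR1 and PSMB5 for MAPKAPK2, G3BP2 and AP4E1 for UBE2Q2, PSMB5 and NPLOC4 for ADPGK, and MBTPS1 and ZNF605 for CA13. These columns share their library, depth and table scaling, so the values are a description.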

How the data were processed

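The 5 genes, the gene lists, the word search and the alternatives were chosen with earlier results of these data known. The authors deposited 1 table of TPM per cell line, 6 columns each, every column adding up to 1000000. Stranded polyadenylated RNA was sequenced, per the labels' protocols, and STAR, DESeq2 and GRCh38 are named, with no versions, in the submitters' processing notes. Arms were read from column headings. Older symbols were matched through RefSeq synonyms (1144 entries in RKO, 1398 in COLO 201, 1425 in H1975), and 28 date-like entries of COLO 201 were left out.

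Genes with a mean of at least 1 TPM (10551, 11566 and 12359 in RKO, COLO 201 and H1975) entered a limma fit (version 3.58.1, R 4.3.3) of log2(TPM + 1) with a variance trend and two-sided p, and Benjamini-Hochberg adjustment over all genes tested in a line; a fold on this scale understates the change of low genes. Called were 220 higher and 1695 lower in RKO, 5312 and 1740 in COLO 201, and 2959 and 1800 in H1975. Rescaled by the median ratio, the split was 1453 higher and 1468 lower in RKO, and 3153 higher and 3435 lower in COLO 201, since the deposited medians of -0.26 and 0.12 moved to about 0. The fit and the word ranking were checked on simulated data.

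3′ UTRs came from GENCODE 29. Named are the 5 genes and MUC1, relatives with at least 1 TPM, up to 3 genes per list and line with the smallest adjusted p, called neighbours, the 3 genes inside and outside the last place, and the 3 likest genes per member; UBE2Z, TNRC6A, DICER1, HSPB1, PAK1 and others are also given in lines beyond the one that named them. Of the called neighbours a selection is printed, chosen after their values were seen. The alternatives were other pseudocounts, TPM minimums, scalings, no trend, a block and each column left out.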

Additional observations from a re-analysis of the deposited data

Results flagged for a closer look

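Among the relatives and neighbours of the 5 genes, 6 had doxycycline columns wholly above the vehicle columns in one line and wholly below them in another. The difference between lines was not tested in any of these cases, and each is given as the log2 change in the first line minus that in the second. It was 0.91 for DNAAF11 (COLO 201 minus RKO), 0.51 for HKDC1 (H1975 minus COLO 201), 0.26 for IKBKE (COLO 201 minus H1975) and 0.41 for SNX33 (COLO 201 minus H1975). For LRATD2 it was 0.71 (RKO minus COLO 201) and 0.64 (H1975 minus COLO 201). For SNUPN it was 0.89 (COLO 201 minus RKO) and 0.80 (H1975 minus RKO). LRATD2 in COLO 201, DNAAF11 in RKO, and SNUPN and HKDC1 in H1975 did not pass the test. Of all tested genes, 32.4% in RKO, 16.6% in COLO 201 and 18.4% in H1975 had every doxycycline column below every vehicle column. The share of all genes with opposite orders in different lines was not computed.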

How the results depend on the processing

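The 5 genes stayed below 0 in all 214 values computed under the alternatives (-1.55 to -0.43). Their median log2 change was -0.82, -0.94 and -0.84 in RKO, COLO 201 and H1975 with a pseudocount of 5, and -1.19 in COLO 201 with 0.1. After rescaling it was -0.87 in RKO and -1.18 in COLO 201, and -0.90 in RKO also without vehicle column 1. In COLO 201 it was -1.12 without mitochondrial and small noncoding genes. With a minimum of 5 TPM it was -1.11 there because CA13 was no longer tested, and the values of the other genes did not change. With single columns left out it lay between -1.25 and -1.07 for RKO, between -1.09 and -1.03 for COLO 201 and between -1.07 and -0.93 for H1975. MUC1 left in RKO was 12.2% without vehicle column 1.

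Counts of calls moved more. With no minimum TPM, RKO had 16 genes lower and 12 higher, 1 lower and 0 higher over the 7 lists, and 5 genes were lower in every line; the cause was not tested. At the planned minimum, 3608 RKO genes had an unadjusted p under 0.05. Rescaling gave 1453 higher in RKO with 15 in the lists, and in COLO 201 gave 3153 higher and 3435 lower with 50 lower in the lists. Neighbours then counted 10 higher and 5 lower in RKO, 6 lower in COLO 201 and 5 lower in H1975. Without vehicle column 1 and rescaled, RKO had 2995 higher and 3060 lower, with 36 and 46 in the lists. Removing small noncoding genes gave 1276 higher in RKO, 14 in the lists. With single columns left out, calls ran from 101 to 257 higher and 477 to 2302 lower in RKO and from 1618 to 3324 higher in H1975. Over the lists they ran from 1 to 3 higher and 7 to 38 lower in RKO and from 22 to 47 higher in H1975, and genes lower in every line from 68 (without RKO doxycycline column 1) to 189. The lowest RKO count of lower calls was also without doxycycline column 1, and the lowest H1975 count of higher calls without vehicle column 1.

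Column numbers did not pair the columns: same-number correlations of deviations were 0.29, 0.27 and -0.01 in RKO, -0.05, 0.15 and 0.28 in COLO 201, and 0.16, -0.42 and -0.35 in H1975. With the number as a replicate block, RKO had 344 higher, with 7 higher and 35 lower in the lists, H1975 had 27 higher in the lists, and 112 genes were lower in every line. The share of genes lower in every line with the word was 56.2%, and 54.1% with principal transcripts, 53.9% after rescaling and 48.4% also without RKO vehicle column 1; it was not computed under the other alternatives. Unknown depth limits what low genes such as MUC1 in RKO can show.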
